A study of Homo sapiens with 12 samples.

Results

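The BCL2 family was followed through 10 of its genes, 4 that favour survival (BCL2, BCL2L1, BCL2L2 and MCL1) and 6 that favour death (the BH3-only genes BCL2L11, PMAIP1, BBC3 and BID, and the effectors BAX and BAK1). The members were taken by name from the table of array signals, using entries assigned to 1 gene whose 12 values carried 3 decimals, and they make up 10 of 16913 genes kept. The arrays came from A673 and TC32, established Ewing sarcoma cell lines, each treated for 6 h with DMSO (the solvent control), 100 nM or 500 nM of THZ531, an inhibitor of the transcriptional kinases CDK12 and CDK13. The 6 groups held 2 arrays each, labelled as biological replicates. Both lines carry the EWS/FLI fusion that defines this tumour, so all groups share it, and each line stands for a single tumour. The DMSO samples are also labelled with a dose of 100 nM, set aside here because their titles name the solvent alone.

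BCL2 family proteins decide whether the outer membrane of mitochondria stays intact. Survival members hold the effectors BAX and BAK1 in check, BH3-only members relieve that restraint or activate the effectors, and active effectors form pores that release cytochrome c and start caspase activation. Which survival protein a BH3-only protein can bind differs between them, and PMAIP1 (NOXA) is known for binding MCL1.

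Each value below is a log2 signal as the authors deposited it, and a difference of 1 is a change of 2-fold. Whole arrays differed in level. The median over all genes kept ran from 5.68 in a TC32 array at 500 nM to 7.32 in an A673 DMSO array, and the 2 A673 arrays at 500 nM had medians of 6.60 and 6.13. Differences of the members are therefore given as deposited and also relative to the array medians, after each array was centred on its own median. Centring moved the differences from DMSO up by 0.62 and 0.83 in A673 at 100 and 500 nM, and by 0.21 and 0.79 in TC32. RNA spike-in controls were added per the labels, but how they entered the deposited values is not given in the sources used here, so a lower level of RNA in all cells and an offset of an array cannot be told apart. Of 6 Ewing sarcoma markers 5 were in the table, with CD99 at 13.15 to 13.89, NKX2-2 at 8.27 to 11.12 and FLI1 at 5.44 to 10.87. At 500 nM as deposited 5 of the 5 were lower in A673 and 4 in TC32, against 82.5% and 62.9% of tested genes. After centring 2 were lower and 2 higher in A673, and 3 lower and 2 higher in TC32. NKX2-2 fell by -1.20 in A673 and -2.51 in TC32, and relative by -0.37 and -1.72. FLI1 fell by -2.66 in A673, and relative by -1.83. On 10 of the 12 arrays FLI1 reached 5.94, the mean level needed for testing. Its difference in TC32 is not given here, so no contrast between the lines is meant. Of 13 markers of other cell types in the table, 8 averaged under 5.94, the level a gene had to reach to be tested, and PTPRC and EPCAM stayed under it on all 12 arrays, while CD79A, CLDN4 and DES reached it on all 12. The mean over these 13 markers was 5.76 to 5.87 in A673 DMSO arrays, 5.48 to 5.74 at 500 nM, 5.35 to 5.38 in TC32 DMSO arrays and 5.22 to 5.30 at 500 nM. Of the 5 of these markers that were tested, 4 in A673 and 5 in TC32 were higher at 500 nM relative to the array medians, with medians of 0.40 and 0.49, and 0 were higher at 100 nM. Their part in the results was not tested. Calls are at an adjusted p of 0.05 from limma over 10148 tested genes, and all 10 members were tested. On the deposited scale the fit treats the spread as known, so with 2 arrays in a group its p-values can be too small. All groups also share that spread, so p-values can be too large for groups whose arrays lie closer together than the 2 A673 arrays at 500 nM. A missed call on this scale is therefore no evidence of an unchanged level.

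As deposited, BCL2 and BCL2L2 were lower in all 4 comparisons with DMSO, and the only members called higher were BH3-only genes. In A673 at 100 nM 5 of 10 members were lower and 0 higher, where 58.7% of tested genes were lower and 1.31% higher. In A673 at 500 nM 8 were lower and 0 higher, where 82.5% of tested genes were lower and 0.946% higher. In TC32 at 100 nM 3 were lower and 1, BCL2L11, was higher, against 20.9% and 5.56% of tested genes. In TC32 at 500 nM 6 were lower and 1, PMAIP1, was higher, against 62.9% and 0.946%. The counts of lower members lie near these backgrounds in all 4 comparisons and are no result about the family as a whole. The count in A673 at 100 nM was 3 without DMSO replicate 1 or without 100 nM replicate 2, and 8 without either A673 500 nM array, since all groups share 1 estimate of the spread. The count in A673 at 500 nM was 4 without DMSO replicate 1 and 5 without 500 nM replicate 2.

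Relative to the array medians BCL2 and BCL2L2 were again lower in all 4 comparisons with DMSO, and MCL1, BCL2L11 and PMAIP1 were higher in all 4. In A673 at 100 nM 2 members were lower and 4 higher, against 17.1% and 24.4% of tested genes. In A673 at 500 nM 2 were lower and 5 higher, against 27.4% and 29.6%. In TC32 at 100 nM 2 were lower and 4 higher, against 21.2% and 30.6%. In TC32 at 500 nM 4 were lower and 4 higher, against 30.8% and 41.3%. These counts, too, lie near the shares of all tested genes. The tested markers of other cell types were higher at 500 nM by medians of 0.40 in A673 and 0.49 in TC32. Those medians were as large as the differences of MCL1 there (0.28 and 0.40). They also lay near those of BBC3 (0.32 and 0.60), BCL2L11 (0.48 and 0.70) and, in A673, BID (0.36). PMAIP1 differed by more, 1.00 and 1.59. The comparisons of 100 nM and 500 nM within a line share their DMSO arrays. The number of higher members fell to 2 in A673 at 100 nM without DMSO replicate 1 or 100 nM replicate 2, to 2 in A673 at 500 nM without either 500 nM array and 3 without either DMSO array, and to 2 in TC32 at 100 nM without DMSO replicate 2.

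**Figure D1:**
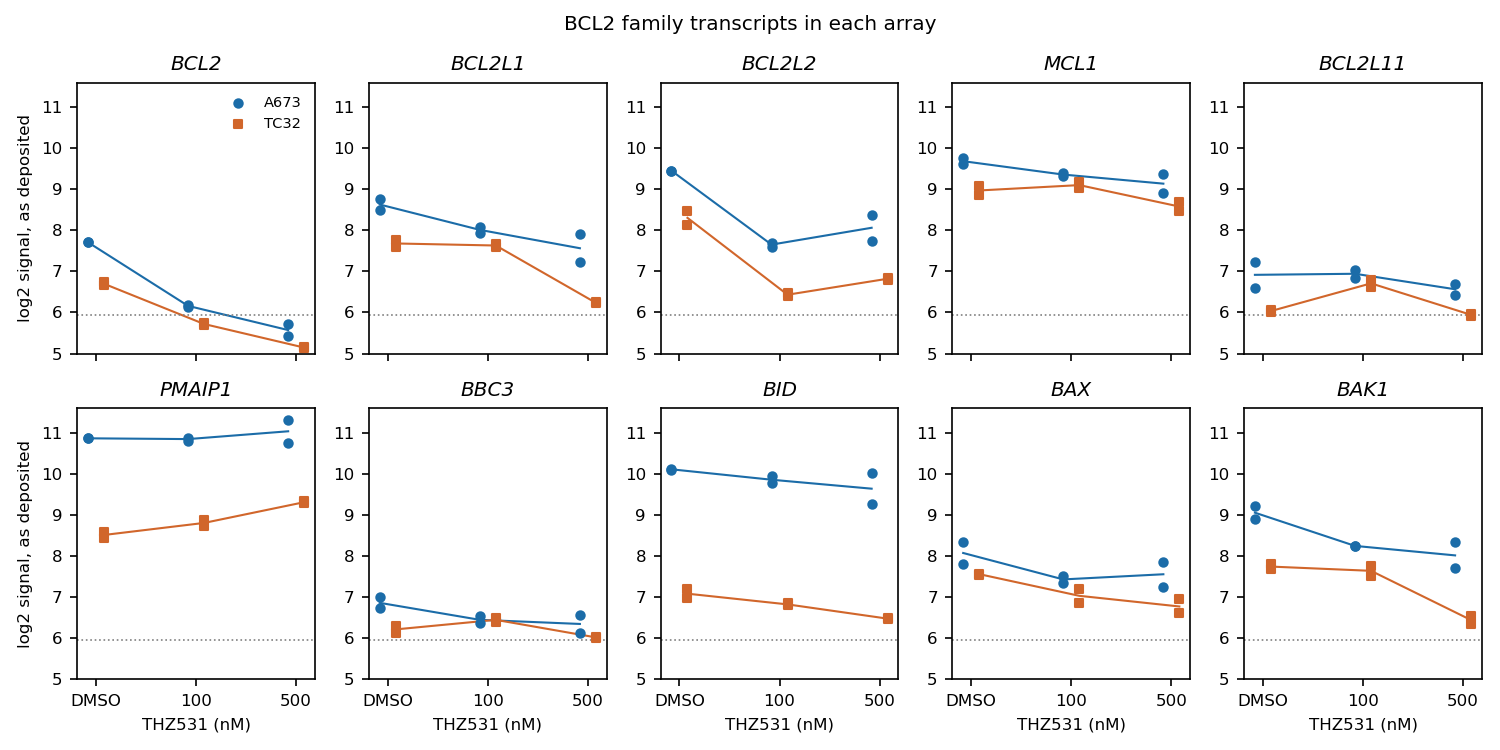
Log2 signal as deposited (vertical axis) of the 10 members in each of the 12 arrays, by treatment (horizontal axis), with lines through the means of 2 arrays. Circles are A673, squares are TC32, and the dotted line is the level of 5.94 a gene's mean had to reach to be tested; levels of different genes are not comparable. BCL2 and BCL2L2 drop below DMSO at both doses in both lines, and PMAIP1 climbs in TC32.

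BCL2, which binds BH3-only proteins and effectors at the mitochondrion, fell in both lines at both doses. In A673 its signal was 7.71 and 7.71 under DMSO, 6.13 and 6.19 with 100 nM, then 5.72 and 5.42 with 500 nM. In TC32 it was 6.74 and 6.66 under DMSO, 5.69 and 5.74 with 100 nM, then 5.14 and 5.15 with 500 nM. All treated arrays lay below the DMSO arrays of their line. The differences from DMSO in A673 were -1.55 ± 0.22 (SE, adjusted p = 9.14e-11) at 100 nM and -2.14 ± 0.22 (adjusted p = 1.54e-20) at 500 nM. In TC32 they were -0.98 ± 0.22 (adjusted p = 0.000104) and -1.55 ± 0.22 (adjusted p = 1.75e-11). Relative to the array medians BCL2 was lower by -0.93, -1.31, -0.77 and -0.76 in the same order, with the largest adjusted p 9.56e-05. All 8 of these calls held with each of the 12 arrays left out in turn. The share of tested genes that fell further was 3.47% and 5.82% in A673 and 8.54% and 17.9% in TC32, at 100 and 500 nM. The BCL2 signal ended under the testing level of 5.94 in A673 at 500 nM and in TC32 at both doses. Counted only down to that level, the fall in deposited signal was at least 3.4-fold in A673 and at least 1.69-fold in TC32. This bound holds for the deposited scale alone, because an offset of an array is part of it. Relative to the medians the A673 difference at 500 nM was -1.31, where it was -2.14 as deposited.

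BCL2L2 (BCL-w), a survival protein of the same kind, fell too, but its low point was at 100 nM. Its A673 signal was 9.46 and 9.45 under DMSO, 7.70 and 7.60 with 100 nM, then 8.38 and 7.75 with 500 nM. Its TC32 signal was 8.47 and 8.14 under DMSO, 6.39 and 6.47 with 100 nM, then 6.79 and 6.85 with 500 nM. In both lines the arrays at 500 nM lay above those at 100 nM and below those under DMSO. Against DMSO the differences were -1.80 ± 0.21 and -1.39 ± 0.21 in A673 and -1.87 ± 0.21 and -1.48 ± 0.21 in TC32, with the largest adjusted p 1.22e-10. Relative to the array medians they were -1.18, -0.56, -1.67 and -0.69, with the largest adjusted p 0.000783. These calls, too, held with each array left out in turn. The share of tested genes that fell further than BCL2L2 was 1.71% and 19% in A673 and 1.17% and 19.2% in TC32, at 100 and 500 nM. A read-through transcript of BCL2L2 with PABPN1 is annotated, and the array signal cannot tell it apart from BCL2L2.

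Between the doses, BCL2L2 was higher at 500 nM than at 100 nM relative to the array medians, by 0.62 ± 0.13 (adjusted p = 0.000394) in A673 and 0.98 ± 0.13 (adjusted p = 8.52e-07) in TC32. Both calls held with each array left out. As deposited the differences were 0.41 (95% interval 0.00 to 0.82) and 0.39 (-0.02 to 0.80), and they missed the test. Among the 10 members 1 was lower and 0 higher at 500 nM than at 100 nM in A673 as deposited, against 26.7% and 0.897% of tested genes, and in TC32 5 were lower and 1 higher, against 55.5% and 1.09%. After centring the counts were 1 lower and 2 higher in A673, against 25.1% and 10.4%, and 2 lower and 3 higher in TC32, against 29.8% and 29.1%. Of the centred calls in A673, the lower one, BCL2 (-0.38, adjusted p = 0.0403), ended without any of 6 of the 12 arrays (adjusted p up to 0.227), and the higher call of PMAIP1 (0.40, adjusted p = 0.00987) without either 100 nM array or 500 nM replicate 1 (adjusted p up to 0.0891). In TC32 the higher call of BAX (0.33, adjusted p = 0.046) ended without any of 8 of the 12 arrays (adjusted p up to 0.511). The deposited call in A673, BCL2 (-0.59, adjusted p = 0.0326), ended without any of 7 of the 12 arrays, while 6 members were lower without A673 500 nM replicate 1. The deposited count of lower members in TC32 was 3 without either 100 nM array or without 500 nM replicate 2, and the higher member, PMAIP1 (0.51, adjusted p = 0.0228), ended without any of the 4 treated TC32 arrays.

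BCL2L1 (BCL-xL) fell most in TC32 at 500 nM. In A673 its signal was 8.77 and 8.49 under DMSO, 8.08 and 7.94 with 100 nM, then 7.91 and 7.22 with 500 nM. In TC32 it was 7.76 and 7.61 under DMSO, 7.67 and 7.59 with 100 nM, then 6.24 and 6.22 with 500 nM. The 100 nM arrays of TC32 overlapped the DMSO arrays, and those at 500 nM lay well below both. The TC32 difference at 500 nM was -1.45 ± 0.21 (adjusted p = 1.72e-11) as deposited and -0.65 ± 0.11 (adjusted p = 2.96e-05) relative to the medians. In that comparison with DMSO 20.1% of tested genes fell further. BCL2L1 was also lower at 500 nM than at 100 nM in TC32, by -1.40 (adjusted p = 1.27e-10) and -0.81 (adjusted p = 2.48e-06). In A673 the differences of -0.62 (adjusted p = 0.00751) and -1.06 (adjusted p = 9.91e-07) were calls as deposited only; relative to the medians they were 0.00 (95% interval -0.23 to 0.23) and -0.23 (-0.47 to 0.00). The call at 100 nM ended without DMSO replicate 1 (adjusted p = 0.152) or 100 nM replicate 2 (adjusted p = 0.102). An antisense gene, BCL2L1-AS1, overlaps this locus, and whether the probes keep the strands apart was not tested.

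MCL1, a survival protein with a short half-life, passed the test as deposited in 1 comparison with DMSO, where BCL2 passed it in 4. Its A673 signal was 9.75 and 9.62 under DMSO, 9.39 and 9.33 with 100 nM, then 9.37 and 8.91 with 500 nM. Its TC32 signal was 9.09 and 8.85 under DMSO, 9.17 and 9.03 with 100 nM, then 8.68 and 8.48 with 500 nM. The 4 treated A673 arrays lay below the DMSO arrays, and in TC32 only those at 500 nM did. As deposited its differences were -0.33 and -0.55 in A673 and 0.13 and -0.39 in TC32, each with an SE of 0.21. The call was that in A673 at 500 nM (adjusted p = 0.0117), which ended without DMSO replicate 1 (adjusted p = 0.114). Without A673 500 nM replicate 1 or replicate 2, MCL1 was also called lower in A673 at 100 nM (adjusted p = 0.00929 and 0.00935) and in TC32 at 500 nM (adjusted p = 0.00244 and 0.00247). After centring the median difference over all tested genes was 0.10, 0.10, 0.13 and 0.15 (A673 then TC32, 100 then 500 nM). In that order, MCL1 ranked above 73.9%, 68.6%, 73.7% and 67.5% of tested genes. Its 3 negative differences turned sign after centring. MCL1 was then higher by 0.29, 0.28, 0.34 and 0.40, with adjusted p of 0.0412, 0.0353, 0.0166 and 0.00344. Each of these 4 calls ended without at least 1 array: the 2 in A673 each without 5 of the 12 arrays, among them DMSO replicate 1 (adjusted p = 0.182 and 0.157), and the 2 in TC32 without DMSO replicate 2 (adjusted p = 0.177 and 0.0653), that at 100 nM also without 100 nM replicate 1 (adjusted p = 0.058).

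PMAIP1 (NOXA), the BH3-only protein that binds MCL1, was the member with the largest rise. In TC32 its signal was 8.59 and 8.43 under DMSO, 8.73 and 8.87 with 100 nM, then 9.33 and 9.29 with 500 nM. In A673 it was 10.86 and 10.87 under DMSO, 10.88 and 10.81 with 100 nM, then 11.31 and 10.76 with 500 nM. The TC32 arrays rose with dose without overlap, whereas the A673 arrays overlapped across treatments. As deposited, PMAIP1 was higher in TC32 at 500 nM by 0.80 ± 0.20 (adjusted p = 0.000152), and the other differences were -0.02 and 0.17 in A673 and 0.29 in TC32 at 100 nM, none past the test. After centring it was higher in all 4 comparisons, by 0.60 ± 0.12 and 1.00 ± 0.12 in A673 and 0.50 ± 0.12 and 1.59 ± 0.12 in TC32, with the largest adjusted p 0.00137. The 4 relative calls and the deposited call in TC32 held with each array left out.

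Promoter sequence was available for 8 members, without BCL2L2 and MCL1, from RefSeq on GRCh38.p14. The windows of PMAIP1 and BCL2 are shown because PMAIP1 had the largest rise and BCL2 fell in every comparison with DMSO, a choice made after their values were seen. Each runs 300 bases, from 250 before to 50 after the start of the gene, PMAIP1 at chr18:59899746-59900045 on the plus strand and BCL2 at chr18:63319720-63320019 on the minus strand. Capitals mark matches, on either strand, to any of 12 motifs searched.
PMAIP1: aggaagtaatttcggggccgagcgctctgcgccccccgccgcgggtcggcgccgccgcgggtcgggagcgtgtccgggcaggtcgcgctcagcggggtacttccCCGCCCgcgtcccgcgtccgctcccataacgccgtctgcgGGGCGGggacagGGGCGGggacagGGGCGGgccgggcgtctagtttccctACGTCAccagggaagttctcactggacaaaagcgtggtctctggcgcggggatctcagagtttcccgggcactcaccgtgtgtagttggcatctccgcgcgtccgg
BCL2: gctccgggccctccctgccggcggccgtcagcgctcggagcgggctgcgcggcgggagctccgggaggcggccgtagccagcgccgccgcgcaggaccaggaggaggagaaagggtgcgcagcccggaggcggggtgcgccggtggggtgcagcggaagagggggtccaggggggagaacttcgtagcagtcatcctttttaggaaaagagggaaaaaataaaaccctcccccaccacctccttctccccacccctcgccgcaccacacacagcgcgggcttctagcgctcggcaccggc
The PMAIP1 window held 4 GC boxes and 1 CRE core, and the BCL2 window held none of the 12. Over 35116 promoters of the same length, the GC box (GGGCGG) was present in 45.0% and the CCAAT box (CCAAT) in 34.6%. The TATA box (TATAAA) was present in 11.5%, the core of the cyclic AMP response element or CRE (TGACGT) in 7.98%, and the E-box (CACGTG) in 7.26%. The full CRE, which contains its core (TGACGTCA), was present in 1.85%, and a related form (TGACGCAA) in 0.513%. The AP-1 site (TGACTCA) was present in 4.95%, the forkhead site (GTAAACA) in 3.42%, a KLF-type site (GGGGCGTGG) in 2.76%, an E2F site (TTTCCCGC) in 1.63% and a CArG box in 0.0313%. Among the other members, BBC3 held 1 AP-1 site, 1 E-box and 1 CCAAT, BCL2L11 held 1 forkhead site, 3 GC boxes and 1 CCAAT, BAX held 4 E-boxes, 2 GC boxes and 2 CCAAT, and BAK1 held 2 GC boxes and 2 CCAAT. BCL2L1 has 2 windows in the table, one with 2 TATA boxes and the other with 1 GC box, and BID has 5, of which 4 held a GC box. These matches are letters in a window, and no measurement here bears on binding.

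BCL2L11 (BIM), a BH3-only activator that can bind every survival member, was higher in TC32 at 100 nM. Its TC32 signal was 6.00 and 6.07 under DMSO, 6.79 and 6.63 with 100 nM, then 5.96 and 5.92 with 500 nM. Its A673 signal was 7.23 and 6.60 under DMSO, 7.04 and 6.85 with 100 nM, then 6.70 and 6.43 with 500 nM. In TC32 the 100 nM arrays stood above the other 4, and in A673 the DMSO arrays spanned the 100 nM ones. The TC32 difference at 100 nM was 0.67 ± 0.22 (adjusted p = 0.00964), which ended without either TC32 DMSO array (adjusted p = 0.115 and 0.0641) or without 100 nM replicate 1 (adjusted p = 0.151). Relative to the medians BCL2L11 was higher by 0.64, 0.48, 0.88 and 0.70 (A673 then TC32, 100 then 500 nM), with the largest adjusted p 0.00565. As deposited it did not rise in TC32 at 500 nM, where the difference was -0.09 ± 0.22 (adjusted p = 0.709) and centring added 0.79. Its TC32 means there, 6.03 under DMSO and 5.94 at 500 nM, lay close to the testing level. The relative call in A673 at 500 nM ended without DMSO replicate 2 (0.29, adjusted p = 0.104) or 500 nM replicate 2 (0.38, adjusted p = 0.0704).

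BBC3 (PUMA), a BH3-only protein known as a p53 target, had a low signal throughout. In A673 it was 6.99 and 6.72 under DMSO, 6.36 and 6.53 with 100 nM, then 6.56 and 6.12 with 500 nM. In TC32 it was 6.29 and 6.13 under DMSO, 6.49 and 6.40 with 100 nM, then 6.04 and 6.00 with 500 nM. The treated A673 arrays lay below DMSO, and in TC32 they lay above it at 100 nM and below it at 500 nM. As deposited 1 difference passed the test, -0.51 ± 0.22 in A673 at 500 nM (adjusted p = 0.025), which ended without DMSO replicate 1 or 500 nM replicate 2 (adjusted p = 0.185 for each). BBC3 was higher relative to the medians in TC32 by 0.44 (adjusted p = 0.0074) and 0.60 (adjusted p = 0.000338) and in A673 at 500 nM by 0.32 (adjusted p = 0.0392). The TC32 call at 100 nM ended without DMSO replicate 2 (adjusted p = 0.0721), and the A673 call without 6 of the 12 arrays, with adjusted p up to 0.12.

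BID, which links death receptors to mitochondria after cleavage by caspase 8, differed more between the lines than between treatments. Its A673 signal was 10.12 and 10.10 under DMSO, 9.77 and 9.94 with 100 nM, then 10.01 and 9.27 with 500 nM. Its TC32 signal was 7.19 and 6.97 under DMSO, 6.80 and 6.84 with 100 nM, then 6.47 and 6.48 with 500 nM. All treated arrays lay below the DMSO arrays of their line. As deposited BID was lower at 500 nM, by -0.47 ± 0.21 in A673 (adjusted p = 0.0303) and -0.61 ± 0.21 in TC32 (adjusted p = 0.0067). The A673 call ended without DMSO replicate 1 (adjusted p = 0.129), DMSO replicate 2 (adjusted p = 0.0876) or 500 nM replicate 2 (-0.10, adjusted p = 0.517), and the TC32 call without DMSO replicate 1 (adjusted p = 0.122) or 500 nM replicate 1 (adjusted p = 0.0523). BID was higher relative to the medians in A673 by 0.37 (adjusted p = 0.0274) and 0.36 (adjusted p = 0.022), calls that ended without DMSO replicate 1 (adjusted p = 0.185 and 0.154), the first also without 100 nM replicate 2 (adjusted p = 0.277) and the second without 500 nM replicate 1 (adjusted p = 0.253).

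The pore-forming effectors were called lower or not called in the comparisons with DMSO when all 12 arrays were used. BAX in A673 was 8.34 and 7.80 under DMSO, 7.50 and 7.35 with 100 nM, then 7.85 and 7.25 with 500 nM. BAX in TC32 was 7.55 and 7.57 under DMSO, 7.20 and 6.85 with 100 nM, then 6.60 and 6.94 with 500 nM. As deposited BAX was lower in all 4 comparisons (-0.64, -0.52, -0.53 and -0.79, largest adjusted p 0.0436), and relative to the medians none of them passed the test (-0.03, 0.31, -0.32 and 0.00). Its deposited calls in A673 ended without DMSO replicate 1 (adjusted p = 0.271 and 0.399), at 100 nM also without 100 nM replicate 2 (adjusted p = 0.0922) and at 500 nM also without 500 nM replicate 2 (adjusted p = 0.356), and that in TC32 at 100 nM ended without any of 10 of the 12 arrays. The call in TC32 at 500 nM held throughout. The centred BAX difference in A673 at 500 nM, 0.31 (95% interval 0.03 to 0.60, adjusted p = 0.0565), was called higher without DMSO replicate 1 (0.46, adjusted p = 0.0117) and without any of 3 TC32 arrays (100 nM replicate 2 and both at 500 nM, adjusted p = 0.0498, 0.04 and 0.0402). BAK1 in A673 was 9.21 and 8.89 under DMSO, 8.23 and 8.25 with 100 nM, then 8.33 and 7.69 with 500 nM. BAK1 in TC32 was 7.80 and 7.68 under DMSO, 7.76 and 7.51 with 100 nM, then 6.54 and 6.33 with 500 nM. BAK1 fell in TC32 at 500 nM on both scales, by -1.30 ± 0.21 (adjusted p = 1.57e-09) and -0.51 ± 0.11 (adjusted p = 0.000491), the same treatment at which BCL2L1 was lowest. In A673 its differences of -0.81 and -1.04 (adjusted p = 0.000417 and 1.79e-06) were calls as deposited only, with -0.19 and -0.21 relative to the medians.

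**Figure D2:**
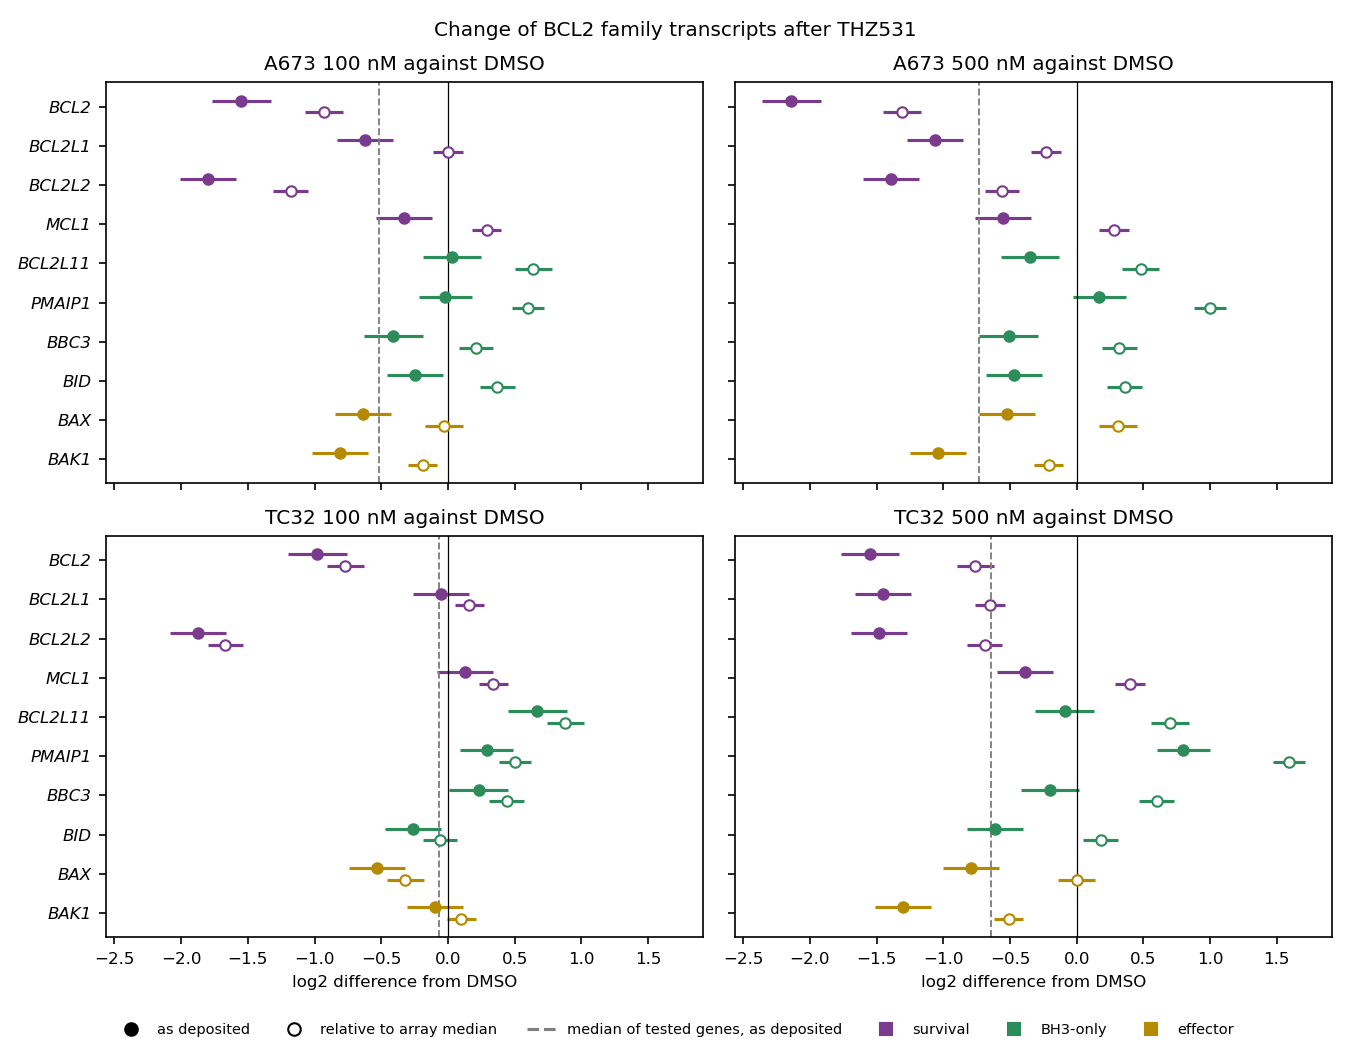
Log2 difference from DMSO (horizontal axis) of each member (vertical axis) in the 4 comparisons; filled points are as deposited, open points relative to the array medians, bars are 1 SE from limma over 2 arrays per group, and colours mark survival, BH3-only and effector members. The dashed line is the median of all tested genes as deposited (-0.52, -0.73, -0.07 and -0.64); BCL2 and BCL2L2 lie left of 0 on both scales and PMAIP1 lies furthest right at 500 nM.

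A difference between members within an array does not depend on the offset of that array. The mean change of the 4 survival members minus that of the 6 death members was therefore computed in each array, against the DMSO mean of its line, as a description with no test. It was -0.70 and -0.74 in the A673 arrays at 100 nM and -0.84 and -0.82 at 500 nM. It was -0.79 and -0.70 in the TC32 arrays at 100 nM and -0.83 and -0.88 at 500 nM. The DMSO arrays lay within 0.10 of 0 in A673 and 0.05 in TC32, so treated and DMSO arrays did not overlap. The group means were -0.72 and -0.83 in A673 and -0.74 and -0.85 in TC32, at 100 and 500 nM. The shift at 100 nM rested on BCL2 and BCL2L2. Without these 2 genes, an alternative chosen after seeing the data, the group values were -0.12 in A673 and -0.01 in TC32 at 100 nM, and -0.35 and -0.55 at 500 nM. The arrays were then -0.08 and -0.16 in A673 and -0.01 and -0.01 in TC32 at 100 nM, where the TC32 arrays lay within the DMSO range of -0.05 to 0.05, and -0.33 and -0.37 in A673 and -0.50 and -0.61 in TC32 at 500 nM. Without BCL2 and BBC3, the members expected to have low signal, the group values were -0.57, -0.56, -0.61 and -0.71. Taken as medians, survival members changed by -1.08, -1.23, -0.51 and -1.46 and death members by -0.33, -0.49, 0.06 and -0.40.

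**Figure D3:**
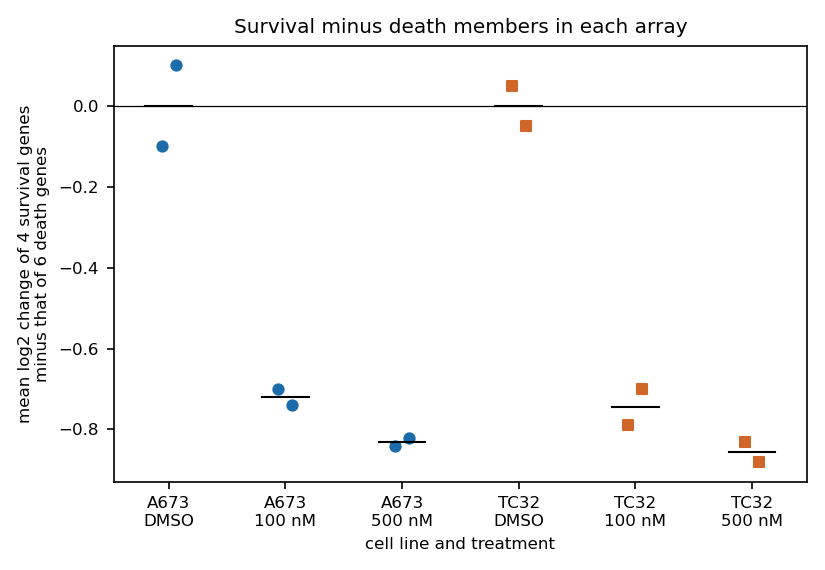
Mean log2 change of the 4 survival members minus that of the 6 death members (vertical axis) in each array, by cell line and treatment (horizontal axis); points are arrays and bars are means of 2. Treated arrays sit between -0.88 and -0.70 and DMSO arrays between -0.10 and 0.10; without BCL2 and BCL2L2 the means at 100 nM are -0.12 and -0.01.

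Whether the lines responded differently was asked directly, as the effect in TC32 minus that in A673. As deposited 0 of 10 members passed this test at either dose, where 2.31% of tested genes passed at 100 nM and 1.83% at 500 nM. The member counts rose above 0 at both doses when either A673 500 nM array was left out, but the shares of all tested genes in those fits were not taken. The count of 0 is therefore no evidence that the lines responded alike. As deposited the median difference at 100 nM was 0.41 over all tested genes and 0.51 over the members. Relative to the medians 0 passed at 100 nM, against 2.62%, and 1 at 500 nM, against 9.80%. That gene was PMAIP1, with a difference of 0.59 ± 0.17 (adjusted p = 0.0264), a call lost without any of 7 of the 12 arrays, where the difference ran from 0.46 to 0.64. For BCL2 the difference at 500 nM was 0.58 (95% interval -0.04 to 1.20) as deposited and 0.54 (0.13 to 0.95) relative, and for BCL2L2 it was -0.09 (-0.67 to 0.48) and -0.13 (-0.50 to 0.24), neither past the test.

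Without the inhibitor BID and PMAIP1 were the members that differed most between the lines. Under DMSO all 10 members were higher in A673 as deposited, where 77.4% of tested genes were. Relative to the medians 4 were higher, BID, PMAIP1, BAK1 and BCL2L2, against 33.9% of tested genes. The relative count lies near that share. BID averaged 10.11 in A673 and 7.08 in TC32, a difference of 3.03 ± 0.21 (adjusted p = 7.37e-46) and 2.34 ± 0.13 relative (adjusted p = 5.27e-13). PMAIP1 averaged 10.86 and 8.51, a difference of 2.35 ± 0.20 (adjusted p = 1.69e-30) and 1.66 ± 0.12 relative (adjusted p = 4.91e-11). BAK1 differed by 1.31 ± 0.21 (adjusted p = 1.63e-09) and 0.62 ± 0.11 relative (adjusted p = 7.95e-05). These 3 held with each array left out on both scales. BCL2L2 differed by 1.15 (adjusted p = 1.28e-07) and 0.46 relative (adjusted p = 0.0039), the relative call ending without TC32 DMSO replicate 2 (adjusted p = 0.0942). The deposited calls of BAX ended without A673 DMSO replicate 1 (adjusted p = 0.399) or either TC32 DMSO array (adjusted p = 0.0811 and 0.075), and those of BBC3 without A673 DMSO replicate 1 (adjusted p = 0.0664) or TC32 DMSO replicate 2 (adjusted p = 0.0679).

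**Figure D4:**
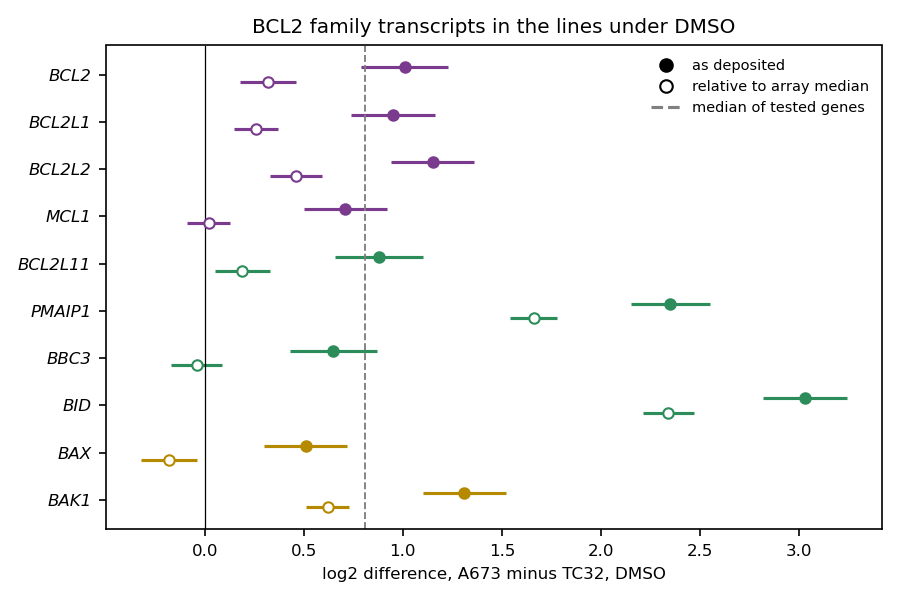
Log2 difference between A673 and TC32 under DMSO (horizontal axis) for each member (vertical axis), as deposited (filled) and relative to the array medians (open), with bars of 1 SE from limma over 2 arrays per line. The dashed line is the median of tested genes as deposited, 0.81; BID and PMAIP1 lie beyond it on both scales.

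Genes around the family were read from lists drawn up by role, beside shares of all tested genes at 500 nM of 82.5% lower in A673 and 62.9% in TC32 as deposited, and of 27.4% and 30.8% lower and 29.6% and 41.3% higher relative to the medians. Of 9 tested genes of the death receptor arm, 8 fell in each line at 500 nM as deposited, and 7 in A673 and 6 in TC32 relative to the medians. FADD, the adaptor that recruits caspase 8, fell by -3.15 (adjusted p = 4.18e-49) in A673 and -3.60 (adjusted p = 5.75e-64) in TC32, and relative by -2.31 and -2.80. TNFRSF1A, a TNF receptor, fell by -3.04 in A673 and FAS, a death receptor, by -1.82 in TC32, and relative by -2.21 and -1.03. TNFRSF1A also fell in TC32, by -2.28, to a mean of 5.73, under the testing level. Of 9 tested regulators of BH3-only genes, 2 rose and 6 fell at 500 nM in each line. The risers were the immediate early factors JUN, by 1.35 in A673 and 0.82 in TC32, and EGR1, by 1.14 and 3.02, and relative to the medians they also rose. After centring 4 of the 9 were higher and 1 lower in A673, and 2 were higher and 3 lower in TC32. FOXO3, a forkhead factor known to activate BCL2L11, fell by -1.52 and -2.12, and relative by -0.69 and -1.33. FOXO1 fell by -0.86 and -1.11, and differed relative to the medians by -0.03 (adjusted p = 0.873) and -0.32 (adjusted p = 0.047). Of 8 tested genes listed for MCL1 turnover 8 fell in A673 and 5 in TC32 at 500 nM. Among them CDK9, a transcriptional kinase rather than a gene of protein breakdown, fell by -1.45 and -1.74, and relative by -0.62 and -0.94. The ubiquitin ligase genes BTRC and FBXO4 fell in both lines. BTRC fell by -1.37 in A673 and by -1.13 in TC32, there to a mean of 5.07, under the testing level. FBXO4 fell by -0.83 in A673 and -1.01 in TC32. Relative to the medians BTRC differed by -0.54 (adjusted p = 0.00236) and -0.34 (adjusted p = 0.0333). FBXO4 differed by 0.00 (adjusted p = 0.994) and -0.22 (adjusted p = 0.159). After centring 3 of the 8 fell and 0 rose in A673, and 2 fell and 3 rose in TC32. Of 9 tested apoptosome and mitochondrial genes, 7 and 5 fell as deposited, and relative 6 rose in each line while 0 and 2 fell. ENDOG, a mitochondrial nuclease, fell by -0.89 and -1.09, and HTRA2, a mitochondrial protease, by -0.87 in each line. Relative to the medians ENDOG differed by -0.05 (adjusted p = 0.687) and -0.30 (adjusted p = 0.0217). HTRA2 differed by -0.04 and -0.08, neither past the test. Of 8 other BCL2 family genes tested, 7 fell in A673, with BMF at -0.91 and BOK at -0.72, and 1, BCL2L13, in TC32 by -0.59, and relative 2 and 7 rose. For these named genes the relative values were -0.08 for BMF, 0.11 for BOK and 0.20 for BCL2L13, none past the test.

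The genes whose pattern over the 12 arrays was most like a member's, by correlation of relative values with each line's mean removed, were UNC13B, TOM1L2 and CHD4 for MCL1 (highest r = 0.97), CCDC77, USP37 and FBXL19 for BCL2 (0.994), NHP2, SERF2 and RPL23 for PMAIP1 (0.995) and TUB, MVB12B and KLHL29 for BCL2L11 (0.956). These were the largest of very many correlations and share the dose groups, and no shared function is meant. Among members, the strongest correlations were BCL2L1 with BAK1 (r = 0.92), BCL2L2 with BCL2L11 (r = -0.91) and MCL1 with BBC3 (r = 0.90). BCL2 ran opposite to MCL1 (r = -0.85) and BCL2L11 (r = -0.84), again over 12 arrays of 6 groups.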

How the data were processed

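Gene expression was measured on 1-colour arrays in 12 samples. The deposited table holds 1 log2 signal per probe set and array; per the submitters' processing notes MAS5, GRCh37 and hg19 were used, with no roles given, and the normalisation is not given in the sources used here. No scanner files or detection calls were used, so signal over background is unknown, and precision is limited by having 2 arrays per group. Of 49395 probe sets 44994 had 1 gene, 1832 several and 2569 none. Entries with 2 decimals or fewer (5.73%) and 116 genes sharing identical values with another gene were left out, leaving 16913 genes; the entry with the highest mean stood for a gene. Of the genes kept, 10 had more than 1 distinct set of values, and for each member all probe sets carried the same 12 values. Agreement between probe sets of a member could therefore not be checked. Genes with mean log2 of at least 5.94 (the 40th percentile) were tested. limma 3.58.1 in R 4.3.3 fitted 1 mean per group over all 12 arrays (eBayes with trend), with Benjamini-Hochberg adjustment over 10148 genes at 0.05; intervals are 95%. The median residual SD was 0.189 as deposited and 0.118 relative. The script was tested on simulated data. All 10 members are named. From each pathway list, up to 2 with the largest rise and 2 with the largest fall at 500 nM in each line are named. They were taken among genes past the test with both group means at or above 5.94. Added after their values were seen were TNFRSF1A and BTRC in TC32 and FBXO4 in A673. The members and lists were chosen with earlier results of these data known. Alternatives covered scaling, filter, variance prior, arrays in the fit, replicate block and leaving out each array; leaving out arrays after centring, and leaving out BCL2 and BCL2L2, were chosen after seeing the data.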

Additional observations from a re-analysis of the deposited data

Results flagged for a closer look

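PMAIP1 stood out because the effect of 500 nM differed between the lines relative to the array medians. The effect in TC32 minus that in A673 was 0.59 ± 0.17 (limma, adjusted p = 0.0264), from effects of 1.59 and 1.00, with both TC32 treated arrays above both DMSO arrays. As deposited the same difference was 0.63 ± 0.28 (adjusted p = 0.391) and did not pass the test. This item was listed on either scale rather than both, a choice made after the values were seen.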

How the results depend on the processing

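Each result was recomputed with 1 choice changed at a time; the cause of a change was not tested unless the alternative's construction shows it. With arrays centred, members lower than DMSO became 2 in A673 at both doses, with or without the replicate block, and members higher became 4 at 100 nM and 5 at 500 nM in A673 (6 with the replicate block), and 4 at both doses in TC32. For 500 against 100 nM, centring gave 2 higher in A673 (3 with the block), and 2 lower and 3 higher in TC32; for the line difference at 500 nM it gave 1 higher, and under DMSO 4 higher (5 with the block). Among differences called on at least 1 scale, the centred values that turned sign or went to 0, the same with the block, were in A673 at 100 nM BCL2L1 0.00, MCL1 0.29, PMAIP1 0.60 and BID 0.37, and in A673 at 500 nM MCL1 0.28, BCL2L11 0.48, BBC3 0.32, BID 0.36 and BAX 0.31. In TC32 at 500 nM they were MCL1 0.40, BCL2L11 0.70, BBC3 0.60, BID 0.18 and BAX 0.00, for 500 against 100 nM in TC32 BCL2 0.01, MCL1 0.06 and BAX 0.33, and under DMSO BBC3 -0.04 and BAX -0.18. With only A673 arrays, 3 members were lower at 100 nM, 4 at 500 nM and 0 at 500 against 100 nM; with only TC32 arrays, 2 were higher at 100 nM and 2 at 500 against 100 nM. A filter at the 60th percentile, which tests fewer genes, gave 0 higher in TC32 at 100 nM, 0 lower in A673 at 500 against 100 nM and 3 lower in TC32 at 500 against 100 nM. Leaving out 1 array, members lower ran from 3 to 8 (A673, 100 nM), 4 to 9 (A673, 500 nM), 0 to 6 (A673, 500 against 100 nM) and 3 to 7 (TC32, 500 against 100 nM), and members higher from 0 to 1 (A673, 500 nM), 0 to 2 (TC32, 100 nM) and 0 to 2 (500 against 100 nM, either line). The count of members with a line difference changed at both doses when either A673 500 nM array was left out. The survival minus death change ran from -0.82 to -0.63, -0.93 to -0.74 and -0.90 to -0.80 in A673 at 100 and 500 nM and TC32 at 500 nM. Without BCL2 and BCL2L2 it was -0.12, -0.35, -0.01 and -0.55 (A673 then TC32, 100 then 500 nM). Without BCL2 and BBC3 it was -0.57, -0.56, -0.61 and -0.71, and as a median -0.73 in A673 at 500 nM and -0.57 and -1.06 in TC32. The replicate numbers did not pair the samples: deviations of same-numbered arrays correlated from -0.16 to 0.44 over pairs of groups. With the replicate block alone, as deposited, 6 members were lower in A673 at 100 nM and 8 at 500 nM.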

Other observations

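The transcripts of MCL1 and PMAIP1, which encode a survival protein and the BH3-only protein that binds it, moved apart within arrays at 500 nM. The change in MCL1 minus PMAIP1 from the DMSO mean was -0.76 and -0.67 in the A673 arrays and -1.11 and -1.27 in the TC32 arrays, a difference that an offset of an array does not touch. At 100 nM it was -0.31 and -0.30 in A673 and -0.02 and -0.30 in TC32. This was not particular to MCL1, as BCL2, BCL2L1 and BCL2L2 parted further from PMAIP1 in each array at 500 nM. For BCL2 minus PMAIP1 the change was -2.43 and -2.18 in A673 and -2.37 and -2.33 in TC32. No test was run on these differences.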
